A study of Mus musculus with 6 samples.

Results

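Mir361, Mir22, Mir338, Mir298 and Mir328 are 5 mouse miRNA genes of unrelated families whose level was lower in exosomes released under ceramide (Cer). They are 5 of the 1973 rows of the miRNA count table, and each was found through the Ensembl identifier that GENCODE M21 gives to its name. They were chosen because they are lower in the ceramide libraries, so their difference between the groups is given as a description, with no test. The exosomes came from the culture medium of HN9.10 cells, an immortalized line of mouse embryonic hippocampal neurons of WT genotype. Control (CTR) cells received no ceramide and treated cells received 100 nmol/L ceramide, given as the short-chain C6 form, and vesicles of either kind were collected after 48 h. Each group has 3 libraries of exosomal small RNA. All come from 1 cell line grown in serum, which carries bovine vesicles and miRNAs of its own. The labels number the replicates but do not say whether they are separate cultures, so the spread given here is that between these libraries.

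A miRNA is cut from a hairpin transcript by Drosha and Dicer, and 1 strand, the 5p or the 3p arm, is loaded into an Argonaute protein. It then pairs with messenger RNAs mainly through its seed, bases 2 to 8, and lowers their stability or translation. Many miRNA hairpins lie inside a host gene and are made from its transcript, and a part of the mature miRNA leaves the cell in extracellular vesicles. Ceramide is the lipid that curves the endosomal membrane when such vesicles bud. The 5 miRNAs are known from different settings. miR-361 is known for restraining the growth factor Vegfa. miR-22 is known from heart and brain, with Hdac4 among its targets. miR-338 promotes the maturation of oligodendrocytes and restrains Cox4i1 in axons. miR-298 and miR-328 bind the transcript of Bace1, the protease that starts the cleavage of the amyloid precursor protein, and miR-328 also acts as a decoy for the RNA-binding protein hnRNP E2.

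The mature sequences of 4 of the 5 miRNAs follow, since their seeds show how little the group has in common. They are RefSeq sequences on GRCm38.p6, written 5′ to 3′ with the seed in capitals.
miR-361-5p: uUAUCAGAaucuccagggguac
miR-361-3p: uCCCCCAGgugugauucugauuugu
miR-22-5p: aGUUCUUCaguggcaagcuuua
miR-22-3p: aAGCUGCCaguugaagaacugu
miR-338-5p: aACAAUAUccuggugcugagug
miR-338-3p: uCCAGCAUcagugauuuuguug
miR-298-5p: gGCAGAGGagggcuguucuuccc
miR-298-3p: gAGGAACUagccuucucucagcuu
The 8 sequences have 8 different seeds, and no seed recurs among the 1730 mature entries of other genes in the same RefSeq table. The count table has 1 row per hairpin, so the 5p and 3p arms share a count and the arm that carried a difference is not known. Over the 1674 distinct mature sequences of the table the median GC content was 52.2%. miR-298-5p was above it, at 65.2%, and the other 7 sequences lay between 40.9% and 50.0%. The 4-base motif GGAG, known from miRNAs that hnRNPA2B1 carries into exosomes, is in 1 of the 8 sequences, miR-298-5p, and in 14.2% of all mature sequences. CCCU, the companion motif, is in none of the 8 and in 11.4% of all. Both motifs were searched on the mature strand only.

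The hairpins lie at 5 separate places in GRCm38. Mir361 occupies 113074824 to 113074893 of chromosome X (minus strand), in an intron of Chm, which encodes the Rab escort protein. Mir22 occupies 75463716 to 75463810 of chromosome 11 (plus strand). It lies in an exon of its noncoding host Mir22hg, and the same bases are in an exon of a transcript of Tlcd2. Mir338 occupies 120014765 to 120014862 of chromosome 11 (minus strand), in an intron of Aatk, a kinase gene of the nervous system. Mir298 is on chromosome 2 from 174267504 to 174267585 on the minus strand and overlaps no annotated host. The nearest gene that is not a miRNA is Nespas, an antisense transcript of the imprinted Gnas locus on the same strand, whose nearer end is 13652 bases away. Mir328 is on chromosome 8 from 105308364 to 105308460 on the minus strand. Its host position differs from the others, as Elmo3, a gene of cell engulfment and motility, runs on the opposite strand. An Elmo3 exon overlaps the hairpin. Host transcripts were not measured, because the table holds miRNA genes only.

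Before the values, 3 properties of the libraries touch them. Total counts ran from 972344 to 1393282 in control and from 800810 to 2760015 in ceramide libraries, and ceramide replicate 1 was the shallowest. The labels give lane number 1 for replicate 1 of both groups, 4 for the other control libraries and 2 for the other ceramide libraries. Outside replicate 1 the lane number and the treatment therefore cannot be told apart. No flow cell or run is named, so replicate 1 of the groups need not have shared a lane. Strand use was not stated. Mir191 has no row, while Gm24083, a gene model that covers it on the other strand, held 3049 to 11282 counts per library. This matters for Mir338, because Mir3065 covers 87 bases of it on the other strand and has no row of its own. The mature miR-3065-5p is shown here because it shares 21 positions of the genome with miR-338-3p.
miR-338-3p: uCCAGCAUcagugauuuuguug
miR-3065-5p: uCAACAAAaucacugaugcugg
The Mir338 row may therefore hold reads of both. No other hairpin of the RefSeq table shared 18 bases with a printed sequence of the 5 miRNAs.

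Of the labelled cell type, 13 rows of neuronal miRNAs were present and none was at 0. Their summed level was 13520 to 15887 CPM in control and 15029 to 19417 CPM in ceramide libraries. Of these 13 rows miR-218-2 held the most counts, whereas the 3 rows of miR-124, the miRNA of mature neurons, had 14.3 to 21.0 CPM. Of miRNAs of blood cells and serum, 6 rows were present, none at 0, with summed levels of 389 to 424 CPM in control and 362 to 413 CPM in ceramide libraries. The groups overlapped in both sums. Whether serum RNA had a part in any difference was not tested.

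Mir361 had the highest level of the 5. CPM here are read counts normalised to library size with edgeR's TMM factors, and QL is edgeR's quasi-likelihood test. Control replicates 1, 2 and 3 had 5142, 4746 and 4707 CPM, and ceramide replicates 1, 2 and 3 had 2417, 2552 and 2564 CPM. The groups did not overlap, and the highest ceramide library was at 54.5% of the lowest control library. The mean was 4865 ± 241 CPM for control and 2511 ± 81.7 CPM for Cer exosomes (± SD, n = 3 per group), or 51.6% of control, and the fitted log2 difference was -0.95 (SE 0.08). Within replicate numbers 1, 2 and 3 the log2 difference was -1.09, -0.89 and -0.88. The first of these is the difference of the pair with the same lane number. The spread within the groups was among the smallest of the table. The residual SD of log2 CPM of Mir361 was 0.06, at percentile 3.59 of the 418 rows tested.

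Mir22 had 2142, 1867 and 1957 CPM in control replicates 1, 2 and 3 and 1470, 1138 and 1117 CPM in ceramide replicates 1, 2 and 3. Replicate 1 was the highest library in each group, and the groups did not overlap. The mean was 1989 ± 140 CPM for control and 1241 ± 198 CPM for Cer exosomes (± SD, n = 3 per group), or 62.4% of control. For Mir22 the log2 fold change was -0.68 (SE 0.13), and within replicate numbers it was -0.54, -0.71 and -0.81. The value of replicate 1, the pair with the same lane number, was -0.54, the smallest of these in size. It lay short of the fold threshold of 0.6 that the study used.

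Mir338, the rarest of the 5, showed the same order of libraries. It had 169, 151 and 161 CPM in control replicates 1, 2 and 3 and 114, 95.1 and 85.2 CPM in ceramide replicates 1, 2 and 3. Again replicate 1 was the highest library of each group and the groups did not overlap. The mean went from 160 ± 8.62 CPM to 98.2 ± 14.8 CPM (SD, n = 3 each), or 61.2% of control, and the fitted log2 difference was -0.72 (SE 0.14). Within replicate numbers it was -0.56, -0.66 and -0.91, the first from the pair with the same lane number. Only 88 to 251 counts per library lie behind Mir338, so counting alone gives an error of 6.31% to 10.7% in a library. Counting error is taken as the square root of the count. It is larger if molecular identifiers were not used, which is not stated.

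Mir298 had 2522, 1897 and 2577 CPM in control replicates 1, 2 and 3 and 1247, 1125 and 1445 CPM in ceramide replicates 1, 2 and 3. Replicate 2 was the lowest and replicate 3 the highest library of each group, and the highest ceramide library was at 76.2% of the lowest control library. The mean was 2332 ± 378 CPM for control and 1272 ± 162 CPM for Cer exosomes (± SD, n = 3 per group), or 54.6% of control. The log2 fold change of Mir298 was -0.87 (SE 0.15). The difference within replicate numbers 1, 2 and 3 was -1.01, -0.75 and -0.83 on the log2 scale.

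Mir328 varied the most. It had 912, 677 and 1256 CPM in control replicates 1, 2 and 3 and 495, 479 and 660 CPM in ceramide replicates 1, 2 and 3. As for Mir298, replicate 2 was the lowest and replicate 3 the highest library of each group. The groups only just did not overlap, since ceramide replicate 3 reached 97.5% of control replicate 2. The mean was 948 ± 291 CPM for control and 545 ± 100 CPM for Cer exosomes (± SD, n = 3 per group), or 57.4% of control, and the fitted log2 difference was -0.80 (SE 0.24). Within replicate numbers the log2 difference of Mir328 was -0.88, -0.50 and -0.93. The residual SD of log2 CPM was 0.36, at percentile 78.9 of the rows tested, against percentiles of 39.5 for Mir338, 43.8 for Mir22 and 57.9 for Mir298. Control replicate 3 weighed on the value, as the log2 fold change of Mir328 was -0.54 without it and -0.97 without control replicate 2.

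**Figure D1:**
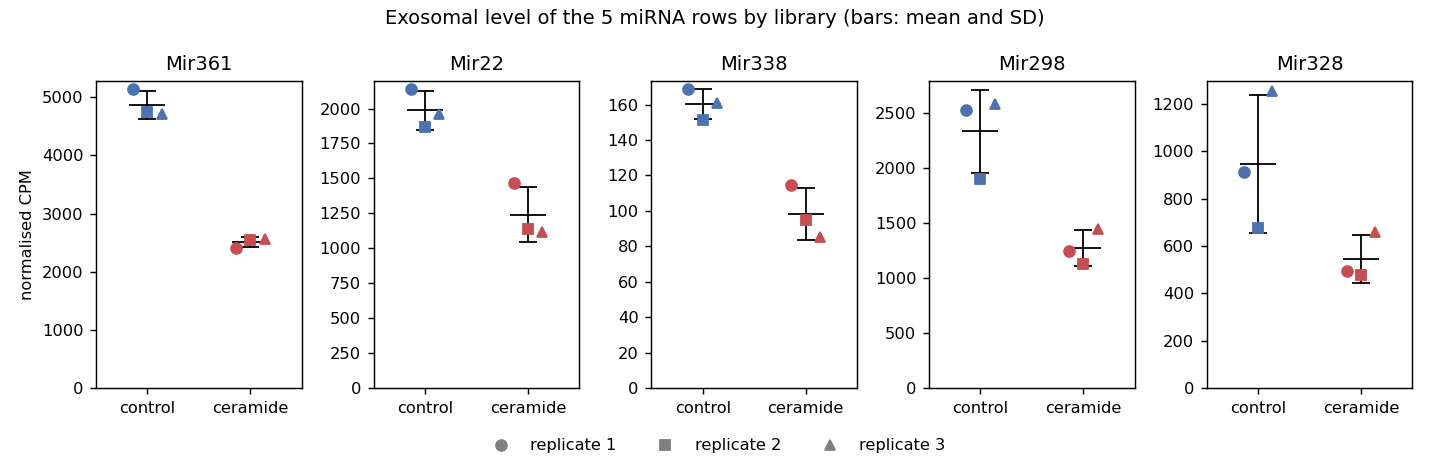
Normalised CPM of each of the 5 miRNA rows (y axes from 0, 1 scale per panel) in the 3 control and 3 ceramide libraries. Symbols give the replicate number and bars the mean and SD. In each panel the ceramide libraries lie below the control libraries, with the widest gap for Mir361 and the narrowest for Mir328, where the highest ceramide library has 660 CPM and the lowest control library 677 CPM.

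All 5 rows were below every control library in every ceramide library, as were 25.1% of the 418 rows tested, while 14.1% were above every control library. With edgeR's quasi-likelihood test and the study's thresholds (absolute log2 fold change at least 0.6, Benjamini-Hochberg adjusted p at most 0.05), 4 of the 5 were called lower, all but Mir328, beside 8.37% of all rows tested called lower and 3.11% called higher. DESeq2, the tool of the study, called 5 of the 5 lower, Mir328 included, beside 28 of the 412 rows it tested. With the replicate number as a block in edgeR 5 of the 5 were called lower, beside 11.7% of all rows. As the rows were chosen on this contrast, nothing is read from these counts. Together the 5 rows held 0.943% to 1.12% of all counts in control and 0.515% to 0.586% in ceramide libraries, and Mir361 alone held 0.479% to 0.530% and 0.232% to 0.256%.

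**Figure D2:**
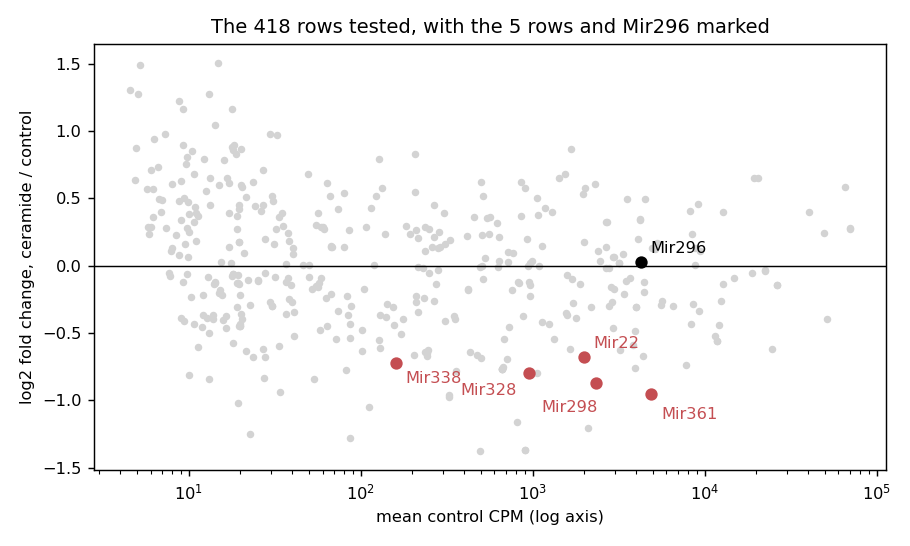
Log2 fold change of ceramide over control (y axis) against the mean control CPM (x axis, log scale) for the 418 rows tested in grey. The 5 miRNA rows, in red, lie between -0.68 and -0.95 over control levels of 160 to 4865 CPM, and Mir296, in black, lies at 0.02.

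The level of the 5 in control exosomes spanned a wide range. Levels of different genes are given per 100 bases of hairpin, although a count of mature miRNA reads need not grow with hairpin length. Mir361 had 6950 CPM per 100 bases, Mir298 had 2844, Mir22 had 2093, Mir328 had 978 and Mir338 had 164. No neighbours in this order overlapped over the 3 control libraries, but Mir298 (2313 to 3142 CPM per 100 bases) and Mir22 (1965 to 2254) nearly did. In plain CPM these 2 overlapped (1897 to 2577 for Mir298 and 1867 to 2142 for Mir22). Their separation therefore comes from the division by hairpin length, and no order is claimed between them. By mean CPM the 5 ranked 39th, 75th, 80th, 109th and 196th of the rows tested, in the same order.

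The libraries of the 5 rows deviated from their group means in different ways. Mir22 and Mir338 were high in replicate 1 of both groups, by 0.11 and 0.07 log2 units in control and by 0.25 and 0.23 in ceramide. Mir298 and Mir328 were low in replicate 2 of both groups, by -0.28 and -0.44 log2 units in control and by -0.17 and -0.17 in ceramide, and both were high in replicate 3. Mir361 deviated by at most 0.08 log2 units, in control replicate 1. The likeness of profiles was measured as the root mean square (RMS) difference of log2 CPM over the 6 libraries, after each row was centred on its own mean. The measure therefore holds the ceramide difference on which the 5 were chosen, and every nearest row named here was itself lower in ceramide libraries, with log2 fold changes of -0.63 to -1.02. Mir22 and Mir338 were each other's nearest row of all those tested, with an RMS difference of 0.05. This is less than the counting error of Mir338 alone, 0.09 to 0.15 log2 units per library, so the closeness cannot be taken as exact. Their hairpins are on the same chromosome, but not in 1 cluster. The next row was Mir33 for Mir22 (0.07), an intronic miRNA of a sterol regulator gene, and Mir344d-3 for Mir338 (0.08).
Mir361 had Mir222 (RMS difference 0.08) and Gm23873 (0.09) as its nearest rows. Mir298 also had Mir222 nearest, at 0.13, followed by Mir34b at 0.16. Mir328 had Mir615 (0.09), a miRNA of the Hoxc cluster, and Mir8112 (0.12). Among the 5 miRNAs the RMS difference ran from 0.05 for Mir22 and Mir338 to 0.34 for Mir328 with Mir338, and it was 0.17 for Mir298 with Mir328.

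**Figure D3:**
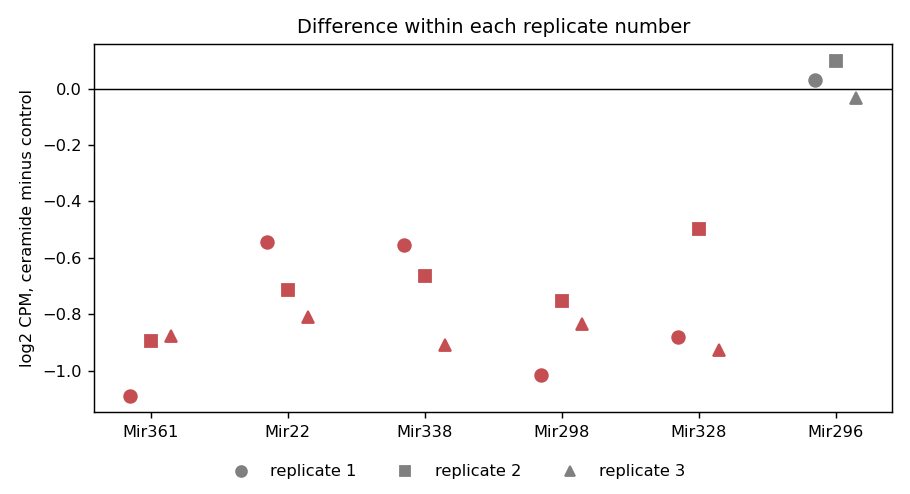
Difference of log2 CPM, ceramide minus control, within each replicate number (symbols) for the 5 miRNA rows in red and for Mir296 in grey. The differences of the 5 rows lie between -0.50 and -1.09, and those of Mir296 between -0.03 and 0.10. Replicate 1 is the pair whose labels give the same lane number.

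Mir298 has a close neighbour, which was not used to choose it. The Mir296 hairpin lies on the same strand of chromosome 2, from 174267047 to 174267125, with a gap of 378 bases between them. Both belong to the imprinted Gnas region. The mature miRNAs of Mir296 are printed because they came from the same small stretch as miR-298.
miR-296-5p: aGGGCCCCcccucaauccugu
miR-296-3p: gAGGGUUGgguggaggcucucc
Their seeds differ from those of miR-298. miR-296-3p holds GGAG, as miR-298-5p does, and miR-296-5p holds CCCU. Mir296 had 4350, 3428 and 5026 CPM in control replicates 1, 2 and 3 and 4437, 3670 and 4912 CPM in ceramide replicates 1, 2 and 3. The groups of Mir296 overlapped over nearly their whole range, and replicate 2 was the lowest and replicate 3 the highest of each group, the order that Mir298 and Mir328 had. Its log2 fold change was 0.02 (SE 0.17, 95% interval -0.37 to 0.42, edgeR QL adjusted p = 0.94). With the replicate block the interval of Mir296 was -0.11 to 0.17 (edgeR QL adjusted p = 0.68).

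The ratio of the 2 rows needs no scaling between libraries. The counts of Mir298 divided by those of Mir296 gave 0.580, 0.553 and 0.513 in control replicates 1, 2 and 3. In ceramide replicates 1, 2 and 3 the ratio was 0.281, 0.307 and 0.294. The ratio varied less than either level, with means of 0.549 ± 0.0338 in control and 0.294 ± 0.0127 in ceramide exosomes (SD, n = 3 each), and the groups lay far apart. The ratio uses the contrast on which Mir298 was chosen and was not tested. The other miRNA gene with a row within 10 kb of one of the 5 is Gm27320, 463 bases from Mir328 on the same strand. It had 0 counts in all 6 libraries, so nothing can be said of its response at this depth.

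**Figure D4:**
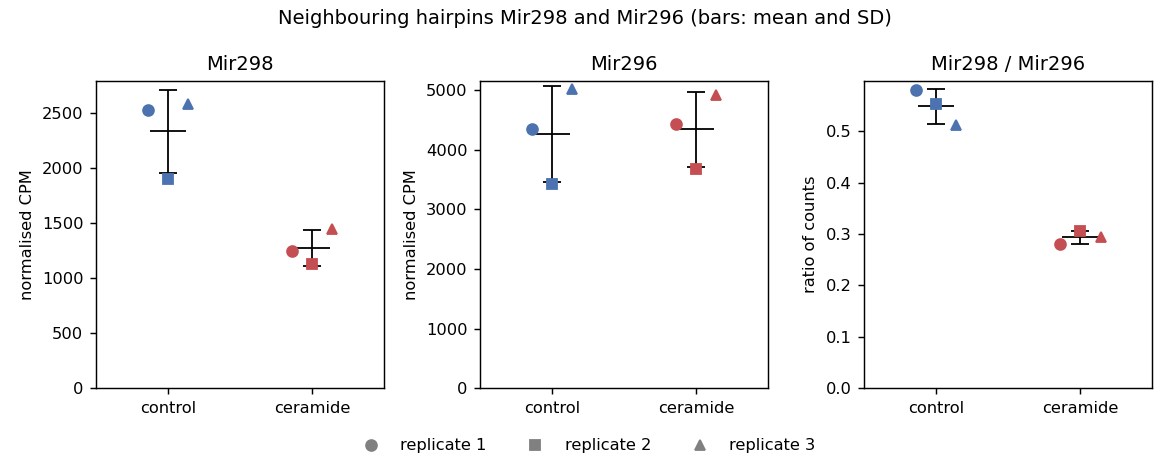
Normalised CPM of Mir298 and of Mir296 and the ratio of their counts (y axes from 0) in the 3 control and 3 ceramide libraries, with replicate numbers as symbols and bars for mean and SD. Mir298 and the ratio separate the groups, with ratios of 0.513 to 0.580 in control and 0.281 to 0.307 in ceramide, while the libraries of Mir296 overlap.

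The rows were also set beside other miRNAs known for the same roles. Of 11 rows of other miRNAs that bind the Bace1 transcript, 0 were called by edgeR's quasi-likelihood test, against 11.5% of all rows in either direction. None of the 11 passed the adjusted p, although Mir107 (unadjusted p = 0.027) and Mir195a (unadjusted p = 0.013) were under 0.05 before it in that edgeR fit. The share of all rows under that unadjusted p is not given here, so nothing is read from these 2. DESeq2 and limma-voom called none of the 11 either. Among the 11 are the 3 miR-124 rows, whose totals of 159, 159 and 160 counts are nearly the same, so they are not separate evidence. The same holds for Mir9-2 and Mir9-3 (680 and 683 counts) and for Mir29b-1 and Mir29b-2 (8877 and 8595). The 11 rows are therefore fewer than 11 separate miRNAs. The median log2 fold change of the 11 was -0.00, beside -0.01 over all rows tested. Mir29a, the most abundant, had 8849 ± 851 CPM for control and 8894 ± 1562 CPM for Cer exosomes (± SD, n = 3 per group), with a log2 fold change of 0.01 (SE 0.14, edgeR QL adjusted p = 0.98). Mir107 had -0.46 (SE 0.16, adjusted p = 0.094) and Mir195a had 0.38 (SE 0.11, adjusted p = 0.058), on the log2 scale and from the same edgeR fit. With the replicate block both passed the adjusted p, at 0.0056 and 0.0087 in the edgeR fit, but not the fold threshold.

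Beside Mir338, 5 rows of miRNAs known for oligodendrocyte differentiation were tested, and 1 was called, in the lower direction, beside 8.37% of all rows tested. That row, Mir138-1, had 3930 ± 511 CPM for control and 2315 ± 214 CPM for Cer exosomes (± SD, n = 3 per group), and the fitted log2 difference was -0.76 (SE 0.12, edgeR QL adjusted p = 0.0053). The study had also picked it from these libraries, so it is not independent evidence of a direction. Mir138-2, the second hairpin of miR-138, had a log2 fold change of -0.21 (SE 0.12, edgeR QL adjusted p = 0.26). Mir23a, the most abundant of the 5, had -0.44 (SE 0.09, edgeR QL adjusted p = 0.019), short of the fold threshold. The rows of miR-219, the miRNA most often named with miR-338 in myelination, had 0.61 (Mir219a-2, SE 0.24, adjusted p = 0.13) and -0.12 (Mir219a-1, SE 0.20, adjusted p = 0.67) from the same edgeR fit. Mir219a-2 had 5.99 to 13.2 CPM and Mir219a-1 29.4 to 45.5 CPM, so both lay below the 85.2 CPM of Mir338 in its lowest library. Mir138-1 and Mir138-2 are hairpins of 1 miRNA, as are the miR-219 rows, so the 5 rows are fewer than 5 separate miRNAs. The median log2 fold change of the 5 rows was -0.21, and their summed level was 18633 to 21237 CPM in control and 13847 to 14992 CPM in ceramide libraries, mostly Mir23a.
Of the 13 neuronal rows, 1 was called lower, near the 8.37% of all rows. It was Mir128-2, with -0.78 (SE 0.10, edgeR QL adjusted p = 0.0026). It too was among the rows the study picked. Mir128-1, the other hairpin of miR-128, had -0.55 (SE 0.08, edgeR QL adjusted p = 0.0053), short of the fold threshold. The 13 rows hold the same miR-124 and miR-9 rows as the Bace1 list, and paired hairpins of miR-128 and of miR-218. They are therefore fewer than 13 separate miRNAs. Mir218-2, the most abundant, had 0.46 (SE 0.16, edgeR QL adjusted p = 0.095, and 0.0035 with the replicate block, still short of the fold threshold), and the median of the 13 rows was -0.11. Of the 6 blood and serum rows 0 were called in that edgeR fit, against 11.5% of all rows in either direction. Their median was 0.20, and 2 had an unadjusted p under 0.05, a share not given here for all rows. These 2, named after their values were seen, were above every control library in every ceramide library, as were 14.1% of all rows tested. Mir223 had 0.58 (SE 0.17, adjusted p = 0.055) and Mir122 had 0.39 (SE 0.12, adjusted p = 0.064) in the edgeR fit. With the replicate block both passed the adjusted p of edgeR, at 0.022 and 0.018, but not the fold threshold. DESeq2 and limma-voom called 0 of them as well. Mir486, which held the most counts of them, had -0.26 (SE 0.16, adjusted p = 0.27 in the edgeR fit).

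**Figure D5:**
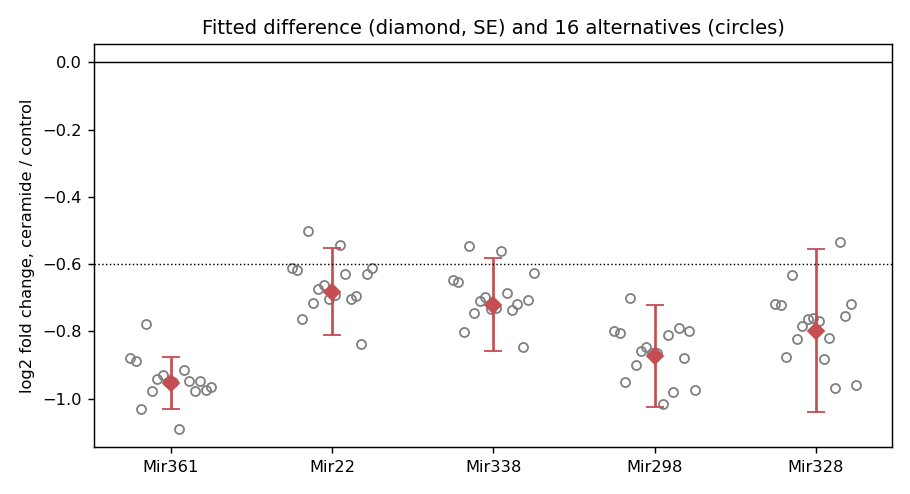
Fitted log2 fold change of ceramide over control for the 5 miRNA rows (diamonds, bars of 1 standard error) and its value under 16 alternatives (circles). The dotted line marks -0.6. All values lie below 0, and the circles of Mir328 spread from -0.54 to -0.97.

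The 5 differences were also computed under other settings. Under 16 alternatives each of the 5 stayed below 0. They were chosen as lower in these same libraries, so this direction is not separate support. Mir361 ran from -0.78 to -1.09, Mir298 from -0.70 to -1.02, Mir338 from -0.55 to -0.85, Mir22 from -0.50 to -0.84 and Mir328 from -0.54 to -0.97. When libraries were scaled to Mir425 and Gm24083, the row over Mir191 (miR-191 and miR-425 are often used as references), the median of all rows moved to 0.17. A change of scaling moves all rows nearly alike, so the distance of the 5 from the median row says nothing further. Mir425 itself had -0.42 with TMM scaling (SE 0.11, edgeR QL adjusted p = 0.042) and Gm24083 had -0.12 (SE 0.08, adjusted p = 0.28), so this reference leaned to the lower side.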

How the data were processed

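Small RNA of exosomes was sequenced in 6 libraries, 3 control and 3 ceramide, grouped by their labels. Per the submitters' processing notes and methods, the authors removed adapters with cutadapt 1.15, aligned reads to GRCm38 with STAR 2.5.3a, assigned them to GENCODE miRNA genes with STAR's gene counting and deposited raw counts per gene. The GENCODE release, strand use and the handling of multiply aligned reads and molecular identifiers are not given in the sources used here. Of 1973 rows, 1894 matched GENCODE M21.

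Counts were fitted with edgeR 4.0.16 in R 4.3.3 (TMM, filterByExpr, quasi-likelihood test, condition as the only term). This kept 418 rows. Abundance is CPM with TMM factors, and log2 CPM has a prior count of 2. DESeq2 1.42.0, the tool of the study, and limma-voom (limma 3.58.1) were alternatives. Further alternatives were other scalings and filters, a replicate block, the lane number as a term and each library left out. Same-numbered libraries deviated together across rows (correlations 0.59, 0.43 and 0.75 for replicates 1, 2 and 3), which was taken to pair them. The labels state no pairing, and these correlations come from the same counts. Values with the replicate block therefore depend on that assumption. The 5 miRNAs and all lists were chosen with earlier results of these data known. Beside the 5, the text names the rows within 10 kb, the 2 nearest profiles of each, and the called and most abundant rows of each list with some others of the lists. Lists were compared by counts and medians.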

Additional observations from a re-analysis of the deposited data

How the results depend on the processing

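Over all rows, 48 were called. The replicate block, which rests on the pairing of libraries by number, gave 87, and the lane number as a term gave 29. Leaving out 1 library gave 28 (without control replicate 1) to 55 (without ceramide replicate 1) rows. By direction, 35 of the 48 rows were lower, 26 of 47 with DESeq2's size factors, 42 of 46 with library size alone and 15 of 45 when scaled to Gm24083 and Mir425, a setting chosen after seeing the data since Mir191 has no row. In the same order, the median log2 fold change over all rows was -0.01, 0.07, -0.09 and 0.17. The cause of these shifts was not tested. In the list of Bace1 miRNAs leaving out 1 library gave 0 to 1 called rows. The oligodendrocyte list had 0 called rows when scaled to Gm24083 and Mir425. The neuronal list had 2 with library size alone, 2 when scaled to Gm24083 and Mir425 and 0 with the lane term. The blood list had 1 with DESeq2's size factors and 1 when scaled to Gm24083 and Mir425. Among the 5 miRNAs, Mir296 and the list rows, the block changed only the call of Mir328, from not called to called. DESeq2 called Mir328 too. Of the 16 alternatives 5 called Mir328. The others did not, among them limma-voom, DESeq2's size factors, library size alone, the stricter filter and the lane term. Nothing is read from calls of the 5, which were chosen on this contrast. Mir298 lost its call with the lane term, and Mir22 and Mir338 lost theirs without control replicate 1, without ceramide replicate 2, with the lane term and when scaled to Gm24083 and Mir425. No seed of the 4 miRNAs whose sequences were searched recurred in the RefSeq mature sequences of other genes, so no value could be computed for such rows. By name, 916 of the 1973 rows have a mature sequence there. Rows without a sequence could not be searched. The 88 to 251 counts of Mir338 per library limit its precision.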
